A study of Mus musculus with 21 samples.

Results

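The mitochondrial ribosomal proteins are the 78 protein-coding mouse genes whose symbols begin with Mrpl (49 genes) or Mrps (29 genes). They were taken from 25067 genes in a table of estimated counts per RefSeq transcript, where each gene was represented by its transcript with the highest mean count. The rule itself uses only symbols and mean counts, but it was set with earlier results of these data known. All 78 genes were above the filter on low counts, which left 12529 genes for testing. By the structure of the mammalian particle, 51 of the 78 products sit in the large subunit and 26 in the small subunit. Mrps18a and Mrps30 belong to the 51 in spite of their names. The remaining member, Mrps36, is a subunit of the alpha-ketoglutarate dehydrogenase complex that kept a ribosomal name.

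The study profiled polyadenylated RNA from cultured mouse bone marrow-derived macrophages by bulk RNA-seq and set wild-type (WT) cells beside cells labelled Nur77-KO. Marrow came from male C57Bl6/J mice aged 6 to 12 weeks and was grown for 7 days in L929-conditioned medium. Both genotypes then stood in 100 ng/ml lipopolysaccharide (LPS), a bacterial outer membrane component, over 0, 4 or 18 h. Each of these times has 4 libraries of WT and 3 of labelled KO, and the total is 21. The genotype field of the labelled KO samples reads "cre", and the sources used here do not give whether Nur77 was removed in the whole animal or in 1 lineage. The labels do not state that replicate numbers are separate mice, so each p-value measures only spread among these libraries, which may be technical.

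Mitochondria keep a small genome that encodes core subunits of the respiratory chain, and a dedicated ribosome inside the organelle translates them. All of its proteins are made from nuclear genes, translated in the cytosol and imported, while its RNAs come from the mitochondrial genome. The particle is rich in protein: besides counterparts of bacterial ribosomal proteins it carries many proteins found only in mitochondrial ribosomes. Macrophages given LPS rearrange mitochondrial metabolism, which makes the supply of this machinery a question of interest over an LPS course.

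Counts assigned to genes ran from 12301504 to 29650081 per library. Levels are given as CPM, the counts scaled to a common library size with TMM factors, and these factors differed with time. They were 1.40 to 1.47 at 0 h, 0.699 to 0.762 at 4 h, 0.988 to 1.03 in WT at 18 h and 0.853 to 0.888 in labelled KO at 18 h, so direction over time depends on the scaling and is given both ways below. Nr4a1, the gene for Nur77, was read at 13.4 to 16.2 CPM in WT and 12.2 to 12.4 CPM in labelled KO at 0 h, at 1.30 to 7.25 and 0.531 to 1.21 CPM at 4 h, and at 0.965 to 1.33 and 2.102 to 3.49 CPM at 18 h. At 18 h the labelled KO libraries were thus above WT, which goes against the label, and the sources used here do not give which part of the gene was removed. Genotype is therefore named as labelled throughout, and each direction between genotypes rests on that label. Macrophage markers were high in every library, with a summed level of 13112 to 24787 CPM over 8 genes, and no lymphoid marker of 8 reached the test. The WT libraries numbered 1 stood apart at 0 and 4 h: chi-square per gene was 28.5 to 33.3 in their pairs at 0 h and 43.65 to 68.96 at 4 h, against 8.1 to 13.81 and 6.99 to 13.15 among the other WT libraries. Labelled KO has no library of that number. Without these libraries at all 3 times, an alternative chosen after seeing the data, 22 members were higher and 23 lower in WT at 4 h, 29 and 11 at 18 h, and 35 and 10 between 4 and 18 h. Between the labelled genotypes 0 and 0 differed at 0 h, 0 higher and 1 lower at 4 h, and 2 higher and 25 lower at 18 h. With all libraries, 35.1% of all genes were higher and 43% lower in WT at 4 h. The shares were 34.8% and 36.3% at 18 h, and 37.2% and 34.5% between 4 and 18 h. Between the labelled genotypes they were 1.11% and 2.87% at 0 h, 2.87% and 2.7% at 4 h, and 16.6% and 15.6% at 18 h.

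Promoter sequences from RefSeq (GRCm38.p6) matched 69 of the 78 genes with 75 promoters, each from 250 bases before to 50 bases after a transcription start. The 8 windows printed here belong to members whose levels the results below turn on: 4 that went up with LPS (Mrpl52, Mrpl3, Mrps22 and Mrpl39), 1 that went down at 4 h (Mrpl41), 2 that differed between genotypes at 18 h (Mrpl9 and Mrpl12) and 1 pair that shares a promoter (Mrpl46 and Mrps11). Capitals mark matches on either strand to CCGGAAGT (the ETS-type element bound by GABP), GCATGCGC (an element of nuclear respiratory factor 1) or GGGCGGGG (an Sp1-type box), and overlapping matches are joined. Windows run 5′ to 3′ on the gene's strand from 150 bases before the start, or from 72 before it in the shared promoter, to 30 bases after it. They lie at chr14:54426759-54426938 for Mrpl52 and chr9:105053118-105053297 for Mrpl3 on the plus strand, and at chr9:98601650-98601829 for Mrps22, chr16:84735215-84735394 for Mrpl39 and chr2:24975069-24975248 for Mrpl41 on the minus strand. The other windows are chr3:94443186-94443365 for Mrpl9 and chr11:120484487-120484666 for Mrpl12 on the plus strand, and chr7:78783060-78783161 for Mrpl46 on the minus strand.
Mrpl52: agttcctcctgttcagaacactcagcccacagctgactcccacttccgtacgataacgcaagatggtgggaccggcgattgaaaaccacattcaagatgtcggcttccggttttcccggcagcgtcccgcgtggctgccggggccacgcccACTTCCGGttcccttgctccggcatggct
Mrpl3: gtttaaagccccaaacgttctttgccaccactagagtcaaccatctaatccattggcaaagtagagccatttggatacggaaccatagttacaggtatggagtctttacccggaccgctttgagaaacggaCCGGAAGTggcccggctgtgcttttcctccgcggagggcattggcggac
Mrps22: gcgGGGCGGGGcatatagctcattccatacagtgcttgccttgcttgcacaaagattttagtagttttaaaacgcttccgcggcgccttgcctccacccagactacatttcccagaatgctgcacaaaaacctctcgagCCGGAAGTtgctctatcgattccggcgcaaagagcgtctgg
Mrpl39: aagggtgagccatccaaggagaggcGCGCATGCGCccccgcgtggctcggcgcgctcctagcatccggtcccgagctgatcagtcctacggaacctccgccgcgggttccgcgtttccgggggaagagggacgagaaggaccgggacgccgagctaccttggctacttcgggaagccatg
Mrpl41: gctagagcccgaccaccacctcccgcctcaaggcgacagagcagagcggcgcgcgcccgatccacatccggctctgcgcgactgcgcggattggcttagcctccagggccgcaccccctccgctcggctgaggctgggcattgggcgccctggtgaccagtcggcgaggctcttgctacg
Mrpl9: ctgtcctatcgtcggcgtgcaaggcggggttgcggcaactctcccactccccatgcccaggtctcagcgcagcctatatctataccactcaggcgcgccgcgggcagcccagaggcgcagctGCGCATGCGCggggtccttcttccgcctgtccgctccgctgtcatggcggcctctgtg
Mrpl12: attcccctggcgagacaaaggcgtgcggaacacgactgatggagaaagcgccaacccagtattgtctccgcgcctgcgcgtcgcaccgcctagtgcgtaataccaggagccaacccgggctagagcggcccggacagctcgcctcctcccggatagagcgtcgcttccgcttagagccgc
Mrpl46: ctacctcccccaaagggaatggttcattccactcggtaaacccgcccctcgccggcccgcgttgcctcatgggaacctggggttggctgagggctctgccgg
Mrpl52, Mrpl3 and Mrps22 carried the ETS-type letters close to the start, Mrpl39 and Mrpl9 carried the nuclear respiratory factor letters, and the windows of Mrpl41, Mrpl12 and Mrpl46 held none of the 3 elements. Over the full windows, CCGGAAGT stood in 16.0% of the 75 member promoters and in 3.89% of all 32851 mouse promoters of that length. GCATGCGC stood in 10.67% of member promoters against 2.71% of all. AAGATGGC, the core letters of the YY1 element, stood in 16.0% against 2.75%. Promoters of the genes tested here are the nearer reference, and among those 12636 the shares were 8.12%, 5.08% and 4.47%. GGGCGGGG was in 24.0% of member promoters and 31.47% of tested promoters, and the E-box CACGTG in 9.33% and 10.13%. AAAGGTCA, the element bound by single Nur77 molecules, matched none of the 75 member promoters and 0.99% of tested promoters. An NF-kB type element also matched none, against 0.47%. A match is a run of letters and no proof of a bound factor, and the absence of a match says only that these letters are not in the window.

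Transcript levels of the 78 members differed widely per transcript length. Per kilobase, averaged over all 21 libraries, Mrpl52 was highest at 89.4 CPM, followed by Mrps21 (50.3 CPM per kb), Mrps18c (43.5 CPM per kb), Mrpl30 (39.3 CPM per kb) and Mrpl13 (36.7 CPM per kb). The lowest were Mrpl57 (1.77 CPM per kb), Mrpl17 (2.20 CPM per kb), Mrpl58 (2.61 CPM per kb), Mrpl35 (2.62 CPM per kb) and Mrpl19 (3.49 CPM per kb). The lengths used were 405 to 786 bases for the highest and 2596 to 6712 bases for the lowest, so this order depends in part on length. Before division Mrpl17 (14.8 CPM) and Mrpl19 (17.4 CPM) were above the members' median of 12.7 CPM. The median was 9.85 CPM per kb over the 77 members with a length, and lengths are approximate because they come from GENCODE exons within the RefSeq span. For Mrpl48 and Mrps16 the transcript with most counts is a non-coding isoform of the coding gene.

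Summed over the 78 genes, the TMM-scaled level in WT was 1006 ± 33.0 CPM (SD, n = 4) at 0 h, 1052 ± 42.8 CPM at 4 h and 1193 ± 67.9 CPM at 18 h. The WT libraries at 18 h, from 1114 to 1270 CPM, lay above all WT libraries at 0 h (974 to 1050 CPM) and at 4 h (1008 to 1110 CPM), while those at 0 and 4 h overlapped. In labelled KO the sum was 1048 ± 34.3 CPM (SD, n = 3) at 0 h, 981 ± 19.4 CPM at 4 h and 1047 ± 49.98 CPM at 18 h. The labelled KO libraries at 18 h (990 to 1083 CPM) lay below every WT library of that time, and so did those at 4 h (960 to 999 CPM). As a plain share of each library, without TMM factors, the same genes made up 1401 to 1547 CPM in WT at 0 h, 733 to 836 CPM at 4 h and 1151 to 1301 CPM at 18 h. The labelled KO shares were 1457 to 1557, 712 to 739 and 857 to 948 CPM. The plain share was thus lower at 4 h than at 0 h in both genotypes, without overlap, while the TMM-scaled sums of 0 and 4 h overlapped in WT and were lower at 4 h in labelled KO (960 to 999 CPM against 1015 to 1084 CPM). The 2 genotypes were apart at 18 h on both scales. The large-subunit sum was 810 to 935 CPM in WT and 730 to 806 CPM in labelled KO at 18 h, and the small-subunit sum 296 to 324 and 251 to 268 CPM. In bulk RNA, fewer cells of a type and less RNA per cell cannot be told apart.

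**Figure D1:**
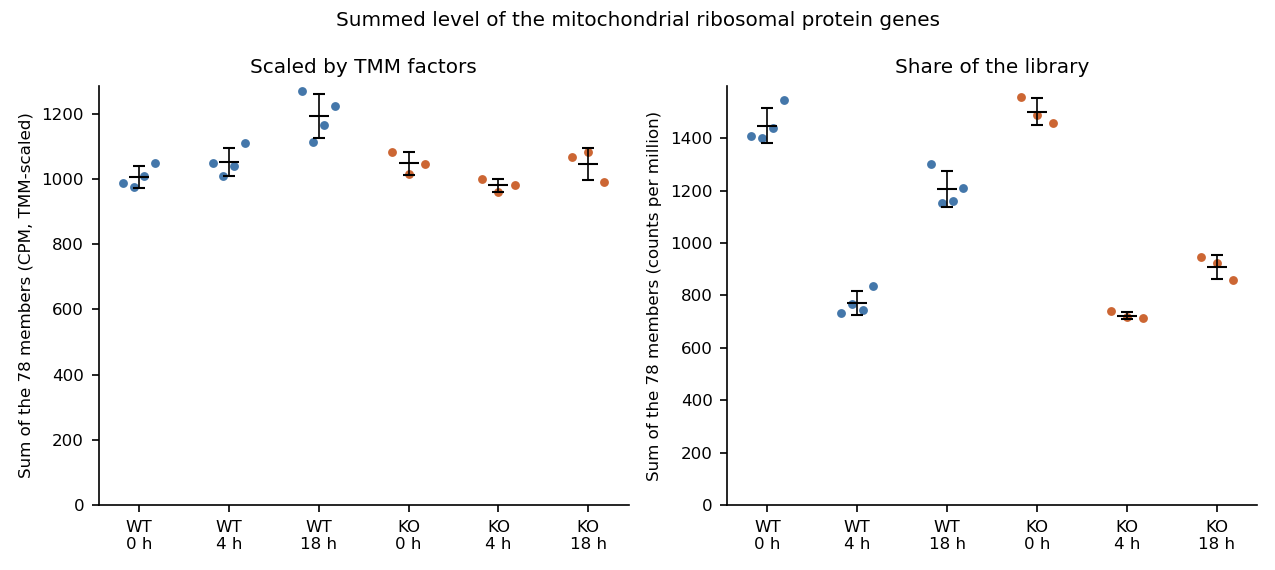
Summed level of the 78 mitochondrial ribosomal protein genes in each library (points, with bars for the mean and SD) by genotype and hours of LPS, as TMM-scaled CPM and as the plain share of the library in CPM. On both scales the labelled KO libraries at 18 h lie below the WT libraries at 18 h, and in both genotypes the plain share is lower at 4 h than at 0 h. The TMM-scaled sum is lower at 4 h in labelled KO (960 to 999 CPM), while the WT libraries of 0 and 4 h overlap.

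After 4 h of LPS single members stood far apart, some much higher and some much lower. In WT, 22 of the 78 members were higher and 26 lower at 4 h than at 0 h by the quasi-likelihood test of edgeR, Benjamini-Hochberg adjusted over the 12529 genes tested, at an adjusted p under 0.05. Over all genes tested, 35.1% were higher and 43% lower, so neither share of the members (28.2% and 33.3%) was above that background. The members' log2 fold changes ran from -2.04 to 2.31 with a median of -0.07, beside -0.17 over all genes. The division into higher and lower follows the scaling: upper-quartile factors gave 11 higher and 46 lower members, and plain library totals, which move the median of all genes from -0.17 to -1.15, gave 2 higher and 71 lower. The gap between the 2 medians was 0.11 under each of these scalings. A change of scaling shifts all genes by nearly the same amount, so this gap is no check on the counts. The libraries of 4 and 0 h did not overlap in 18 members that were higher and 23 that were lower, where 31.9% and 39.7% of all genes did not.

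The largest rise was that of Mrpl52, a large-subunit protein found only in mitochondrial ribosomes (chr14:54426909-54429750, mm10). It was read at 11.3, 8.25, 10.99 and 11.7 CPM in the 4 WT libraries at 0 h and at 57.7, 45.9, 52.9 and 52.0 CPM at 4 h. All 4 h libraries lay far above all 0 h libraries, with a log2 fold change of 2.31 ± 0.12 (standard error, SE) and adjusted p = 8.04e-14 in edgeR. Mrpl52 and Mrpl13 were the 2 named members that went up at 4 h on plain library totals too. Mrpl13 (chr15:55534095-55557312), the counterpart of a bacterial large-subunit protein, went from 17.0, 14.9, 17.4 and 14.7 CPM to 45.9, 35.2, 41.4 and 39.5 CPM, again without overlap, a log2 fold change of 1.34 ± 0.11 (adjusted p = 3.36e-10). Mrpl3 (chr9:105053268-105077466), whose bacterial counterpart reaches toward the peptidyl transferase centre, went from 23.6, 24.7, 23.03 and 24.9 CPM to 44.6, 48.0, 50.9 and 53.5 CPM. Its log2 fold change was 1.03 ± 0.09 (adjusted p = 1.81e-09), and only 0.059 on plain library totals. Mrpl46 (0.88 ± 0.11), Mrpl27 (0.82 ± 0.09) and the small-subunit protein Mrps18c (0.78 ± 0.12) completed the 6 largest rises, and on plain library totals these 3 read -0.095, -0.16 and -0.20.

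Other members fell at 4 h. Mrpl41 (chr2:24972470-24975098), a mitochondrion-specific protein of the large subunit, was read at 8.73, 6.80, 6.79 and 7.31 CPM at 0 h and 2.09, 1.87, 1.83 and 1.48 CPM at 4 h. Every 0 h library was thus far above every 4 h library, and the log2 fold change was -2.04 ± 0.19 (adjusted p = 2.6e-09). Mrps25 (chr6:92169512-92184023), a mitochondrion-specific protein of the small subunit, went from 39.3, 37.5, 39.8 and 32.4 CPM to 10.7, 12.6, 10.97 and 10.9 CPM, a log2 fold change of -1.73 ± 0.09 (adjusted p = 1e-13). Mrpl2 (chr17:46646172-46650132), the counterpart of a core protein of the bacterial large subunit, went from 10.4, 10.2, 13.3 and 11.2 CPM to 3.57, 4.12, 4.39 and 4.48 CPM (-1.44 ± 0.13 on the log2 scale). Mrpl34 (-1.26 ± 0.17), Mrpl28 (-1.18 ± 0.10) and Mrps26 (-1.16 ± 0.16) followed, and these 6 kept their direction and call under every alternative tried.

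By subunit, 16 of 51 large-subunit members were higher and 16 lower at 4 h, and of 26 small-subunit members 6 were higher and 9 lower. By origin, Mrps18a and Mrps18b were classed as mitochondrion-specific, though they are relatives of a bacterial protein. Members with a bacterial counterpart numbered 13 higher and 9 lower of 45, and mitochondrion-specific members 9 higher and 16 lower of 32. These are counts under TMM scaling and no test between the classes was made. A gene that overlaps a member on the genome could share its reads, because the sources used here give neither the counting tool nor its use of strand. Among the 58 members that overlap no coding gene, 17 were higher and 19 lower.

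**Figure D2:**
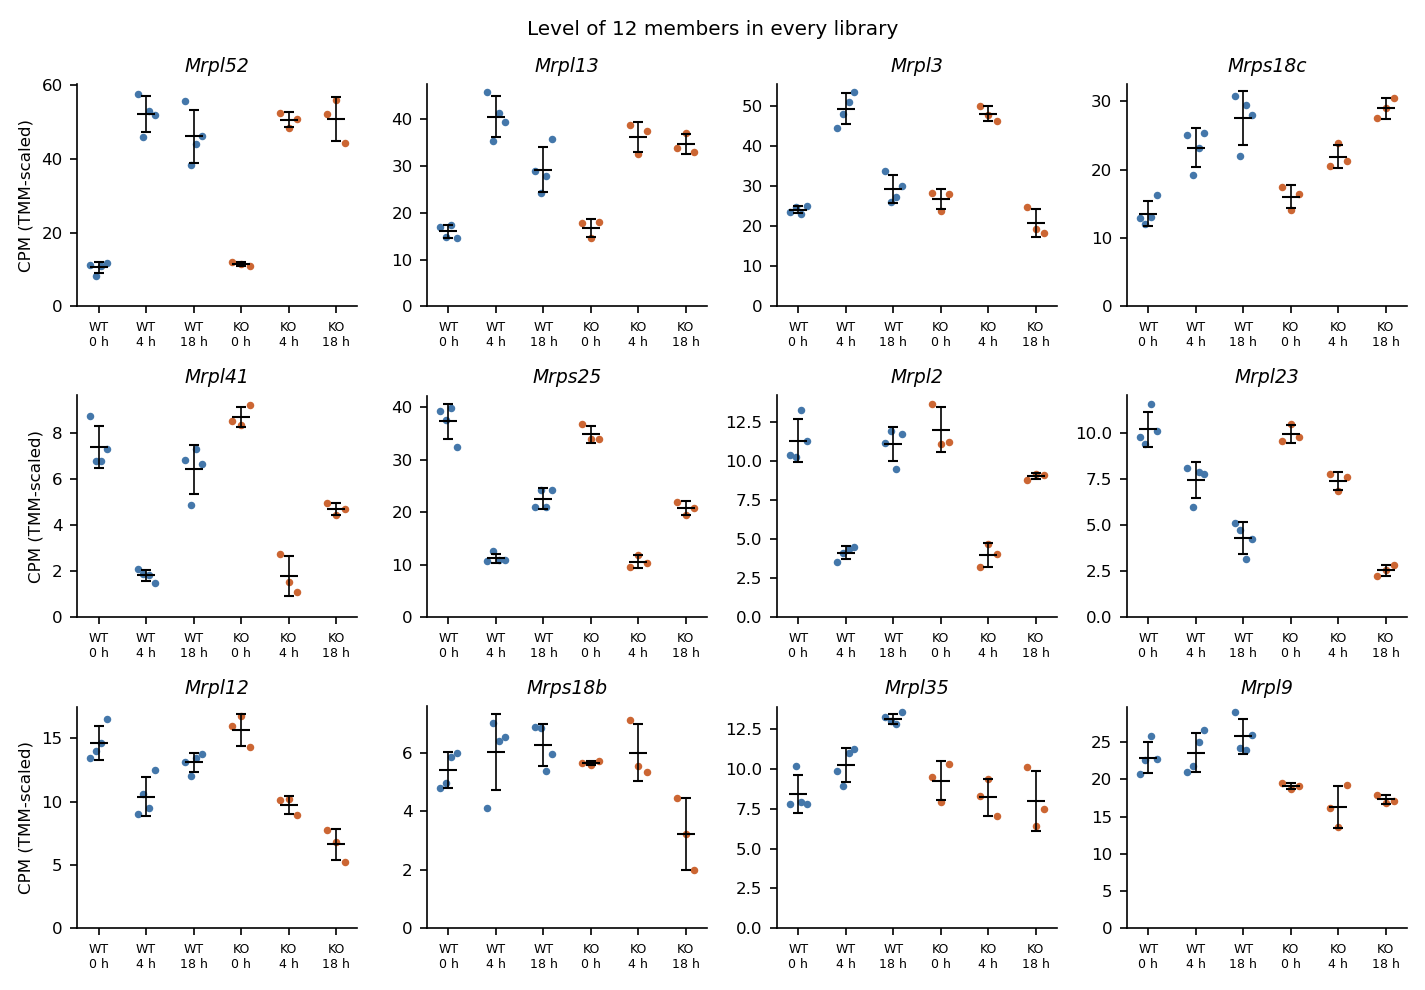
Level in CPM (TMM-scaled) of 12 members in every library, by genotype and hours of LPS; points are libraries and bars give the mean and SD. Mrpl52 goes from 8.25 to 11.7 CPM in WT at 0 h to 45.9 to 57.7 CPM at 4 h, Mrpl41 drops to 1.48 to 2.09 CPM in WT at 4 h and returns by 18 h, and Mrpl12 and Mrps18b separate the genotypes at 18 h.

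By 18 h more large-subunit members were higher than lower in WT under TMM scaling. There, 36 members were higher and 12 lower at 18 h than at 0 h by the same edgeR test, against 34.8% and 36.3% of all genes. The median log2 fold change was 0.21 beside -0.05 over all genes. This gap of 0.26 is nearly fixed under any scaling, which shifts all genes alike, and is no check on the counts. Upper-quartile factors gave 23 higher and 25 lower members, and library totals 12 and 44. Of the 36 higher members 31 are large-subunit proteins, which had 6 lower, while the small subunit had 5 higher and 6 lower of 26. Non-overlapping members numbered 31 higher and 11 lower, beside 32.3% and 34.1% of all genes. The median log2 fold change was 0.33 in the large and -0.03 in the small subunit. Mrpl52 stayed up, at 55.7, 38.4, 43.9 and 46.3 CPM (2.12 ± 0.12 on the log2 scale against 0 h).

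Several members gained between 4 and 18 h. Mrpl30 (chr1:37890477-37898338) went from 16.6, 18.2, 19.8 and 22.0 CPM at 0 h through 31.1, 28.7, 28.8 and 31.2 CPM at 4 h to 48.0, 36.9, 40.1 and 43.4 CPM at 18 h, a log2 fold change of 1.14 ± 0.09 (adjusted p = 1.61e-10) over the whole course. The 3 sets of libraries did not overlap, and the step from 4 to 18 h was called as well. Mrpl47 (chr3:32727497-32736755), the counterpart of a protein at the exit of the peptide tunnel, read -0.10 ± 0.15 (adjusted p = 0.555) at 4 h, not called, and then went from 3.75, 4.41, 3.75 and 4.88 CPM to 9.34, 7.67, 8.69 and 8.33 CPM, a log2 fold change of 1.01 ± 0.15 (adjusted p = 2.78e-06). Mrps18c (1.02 ± 0.11), Mrpl39 (1.00 ± 0.09) and Mrps22 (0.95 ± 0.11) were the other large rises between 0 and 18 h in WT.

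The deepest fall at 18 h was in Mrpl23 (chr7:142532467-142540747), the counterpart of another protein at the tunnel exit. It was read at 9.77, 9.41, 11.6 and 10.1 CPM at 0 h, 8.11, 6.00, 7.86 and 7.79 CPM at 4 h and 5.13, 4.74, 3.14 and 4.25 CPM at 18 h. Every library was below every library of the time before, and the log2 fold change from 0 to 18 h was -1.22 ± 0.13 (adjusted p = 2.55e-08). A copy named Mrpl23-ps1 exists in the annotation, so reads could be split between the 2. Mrps26 (-0.89 ± 0.15), Mrps34 (-0.86 ± 0.14), Mrpl28 (-0.79 ± 0.10), Mrps25 (-0.72 ± 0.08) and Mrpl34 (-0.57 ± 0.16) were lower at 18 h too, and 3 of these 5 are mitochondrion-specific small-subunit proteins.

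Between 4 and 18 h in WT, 39 members were higher and 9 lower by edgeR, against 37.2% and 34.5% of all genes. Under upper-quartile factors the split was 51 and 4 and under library totals 65 and 2, so more members were higher than lower under each of these scalings. Library totals raise every gene in this comparison, since TMM factors were 0.699 to 0.762 at 4 h and 0.988 to 1.03 at 18 h. The 65 and 2 are thus no separate check on the members. The libraries did not overlap in 35 higher and 4 lower members (33.8% and 31.3% of all genes). Mrpl41, Mrpl2 and Mrps25, 3 of the 6 deepest falls at 4 h, were among the 6 largest gains. Mrpl41 returned to 6.84, 4.89, 7.32 and 6.68 CPM, a log2 fold change of 1.82 ± 0.20 (adjusted p = 3.54e-08) over 4 h, and its libraries at 18 h overlapped those at 0 h. Mrpl2 returned to 11.2, 11.9, 9.49 and 11.7 CPM (1.42 ± 0.13), Mrpl40 rose by 1.33 ± 0.15, Mrpl49 by 1.29 ± 0.11, Mrpl57 by 1.06 ± 0.17 and Mrps25 by 1.01 ± 0.09 on the log2 scale. A pair of comparisons that share the 4 h libraries is linked by construction, since a low 4 h value lowers one and raises the other.

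Of the 32 mitochondrion-specific members 20 were higher between 4 and 18 h and 0 lower by edgeR, and of the 45 with a bacterial counterpart 18 were higher and 9 lower. The largest falls in that interval were in Mrps6 (-0.83 ± 0.16), Mrpl23 (-0.78 ± 0.13), Mrpl3 (-0.75 ± 0.10), Mrpl13 (-0.47 ± 0.11), Mrps2 (-0.38 ± 0.11) and Mrpl33 (-0.33 ± 0.14). On plain library totals the calls of Mrps6 and Mrpl13 were lost, and Mrps2 and Mrpl33 read 0.077 and 0.13. The call of Mrpl33 also ended in 17 of the alternatives tried.

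In labelled KO cells each member called at 4 h in both genotypes had the same direction as in WT. There, 13 members were higher and 35 lower at 4 h than at 0 h by edgeR, against 33.5% and 41.5% of all genes. Upper-quartile factors gave 7 and 54, and library totals 1 and 72. The libraries did not overlap in 18 higher and 39 lower members (35.3% and 43.8% of all genes). All 13 higher members were among the 22 in WT, where 94.7% of all genes higher in labelled KO were higher in WT. All 26 members lower in WT were among the 35, where 89.4% of all genes lower in WT were lower in labelled KO. Read the other way, the shared members are 59.1% of those higher in WT (90.3% of all genes) and 74.3% of those lower in labelled KO (92.6%). No member was called in opposite directions. Mrpl52 went from 12.1, 11.4 and 10.9 CPM to 52.5, 48.4 and 50.9 CPM, Mrpl13 from 17.7, 14.5 and 17.9 CPM to 38.7, 32.6 and 37.4 CPM and Mrpl3 from 28.4, 23.8 and 27.9 CPM to 50.03, 47.8 and 46.3 CPM. The log2 fold changes were 2.14 ± 0.14, 1.11 ± 0.13 and 0.84 ± 0.11, all called by edgeR, though Mrpl3 read -0.11 on library totals and the call of Mrpl13 (0.16) was lost there.

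Mrpl39 (0.81 ± 0.11), Mrpl32 (0.75 ± 0.17) and Mrpl30 (0.64 ± 0.10) were the next largest rises in labelled KO at 4 h, and on library totals they read -0.15, -0.21 and -0.32. Mrpl41 was again lowest, from 8.52, 8.38 and 9.22 CPM at 0 h to 2.76, 1.52 and 1.08 CPM at 4 h (-2.34 ± 0.23, adjusted p = 7.85e-09), with no overlap. Mrps25 (-1.72 ± 0.11), Mrpl28 (-1.62 ± 0.12), Mrpl2 (-1.59 ± 0.15), Mrps26 (-1.46 ± 0.19) and Mrps35 (-1.43 ± 0.21) fell with it.

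At 18 h the counts of the 2 genotypes lay further apart. In labelled KO, 18 members were higher and 32 lower at 18 h than at 0 h by edgeR, against 34.5% and 38.5% of all genes, where WT had 36 and 12. All 18 higher members were among the 36 of WT, and all 12 lower members of WT were among the 32, where the shares over all genes were 86.8% and 86.1%. Read the other way, 18 of 36 members higher in WT were shared, beside 86.0% of all genes, and 37.5% of those lower in labelled KO, beside 81.2%. The libraries did not overlap in 19 higher and 34 lower members (34.6% and 39.8% of all genes). The small subunit had 2 higher and 17 lower of 26 (median log2 fold change -0.50), and the large subunit 16 higher and 14 lower of 51 (median 0.04). Library totals gave 6 higher and 64 lower members in all. Mrpl52 (2.15 ± 0.14), Mrpl39 (1.28 ± 0.11), Mrpl32 (1.21 ± 0.17), Mrpl13 (1.05 ± 0.13), Mrps22 (1.03 ± 0.13) and Mrpl30 (1.00 ± 0.10) rose most. Mrpl23 (-1.96 ± 0.17), Mrps26 (-1.60 ± 0.19), Mrpl28 (-1.45 ± 0.12), Mrpl12 (-1.25 ± 0.14), Mrpl36 (-1.19 ± 0.16) and Mrps34 (-1.13 ± 0.16) fell most.

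A pair of members was called in opposite directions in the 2 genotypes between 0 and 18 h under TMM scaling. Mrpl3 read 0.28 ± 0.10 in WT and -0.36 ± 0.11 in labelled KO, and Mrpl15 read 0.23 ± 0.08 and -0.30 ± 0.10. Between 4 and 18 h labelled KO cells had 29 higher and 16 lower members by edgeR, against 33.3% and 32.1% of all genes. Upper-quartile factors gave 38 and 10, and library totals 45 and 8. The libraries did not overlap in 33 higher and 16 lower members (33.7% and 33.2% of all genes). Mrpl41 (1.46 ± 0.25), Mrpl40 (1.22 ± 0.18), Mrpl2 (1.18 ± 0.16), Mrpl1 (1.08 ± 0.13), Mrpl57 (0.99 ± 0.22) and Mrps25 (0.97 ± 0.11) rose most in that interval. Mrpl23 (-1.53 ± 0.17), Mrps6 (-1.26 ± 0.19), Mrpl3 (-1.21 ± 0.11), Mrps18b (-0.90 ± 0.24), Mrps2 (-0.80 ± 0.14) and Mrps17 (-0.72 ± 0.14) fell most. The 1 member called in opposite directions over those hours, under TMM scaling, was Mrpl12, at 0.32 ± 0.12 in WT and -0.56 ± 0.15 in labelled KO.

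**Figure D3:**
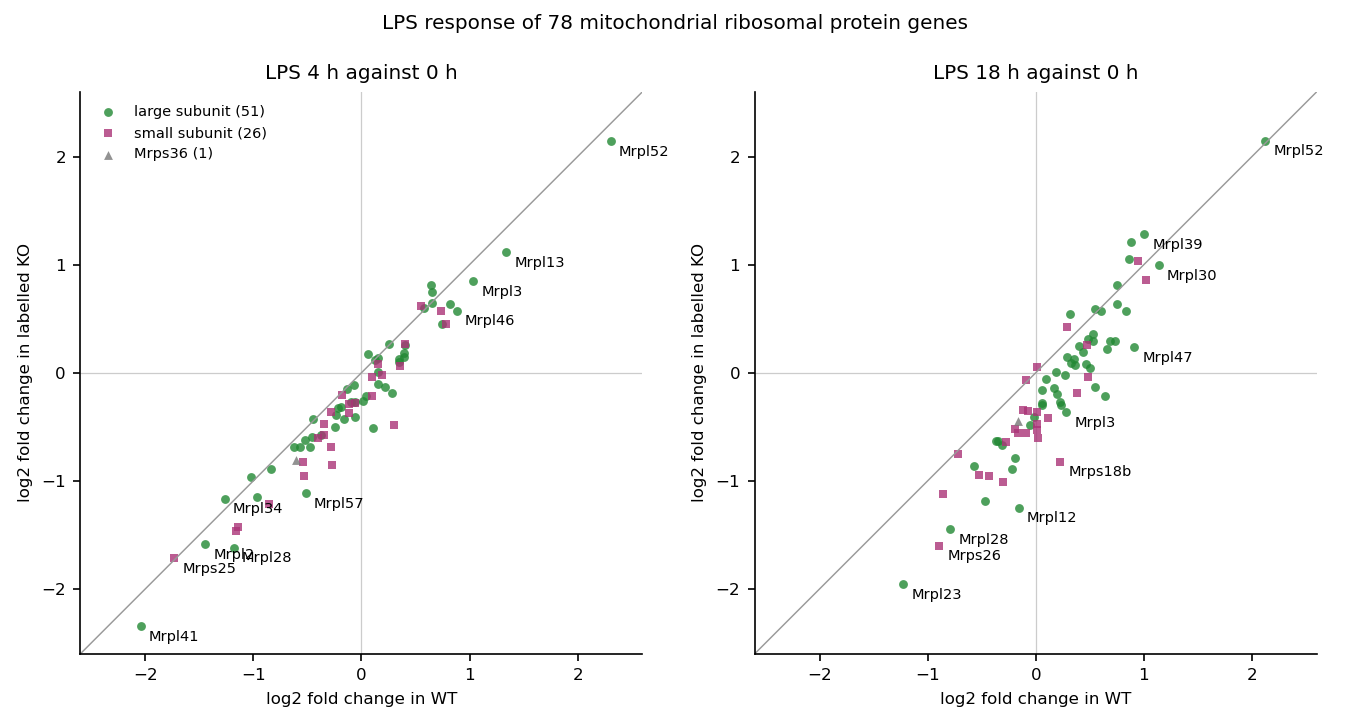
Log2 fold change of each of the 78 members after LPS in WT (horizontal axis) and labelled KO (vertical axis), at 4 h and at 18 h against 0 h, coloured by subunit, with the line of equal change. Values at 4 h run from Mrpl41 (-2.04 in WT) to Mrpl52 (2.31 in WT), and 68 of 78 members at 4 h and 67 at 18 h have a lower log2 change in labelled KO than in WT.

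Before LPS no member passed the test between the genotypes. At 0 h, 0 members were higher and 0 lower in labelled KO than in WT by edgeR, where 1.11% and 2.87% of all genes were. At an unadjusted p under 0.05 there was 1 higher and 1 lower member, and DESeq2 called 1 higher (Mrpl28) and 0 lower. Mrpl28 read 19.2, 20.5, 22.4 and 21.5 CPM in WT and 30.2, 25.1 and 24.7 CPM in labelled KO, without overlap, for a log2 difference of 0.35 ± 0.10 (adjusted p = 0.0553) in edgeR. The members' log2 differences ran from -0.27 to 0.35 with a median of 0.09, beside 0.01 over all genes. The libraries did not overlap in 4 higher and 2 lower members (8.99% and 8.72% of all genes). Mrpl9, 1 of these 2, read 20.7 to 25.8 CPM in WT and 18.7 to 19.5 CPM in labelled KO, not called. Cell-cycle genes differed there, with 18 of 22 lower in labelled KO (summed 329 to 353 CPM against 471 to 624 CPM in WT), and of 8 neutrophil markers tested 7 were higher (78.7 to 134 CPM against 28.3 to 48.98 CPM over the list, without overlap). The part of either in the members' values was not tested.

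At 4 h 1 member, Mrpl9, was called, and its labelled KO libraries had been below all WT libraries at 0 h already. Mrpl9 (chr3:94443154-94448708), the counterpart of a bacterial protein of the large-subunit surface, read 20.96, 21.8, 24.95 and 26.6 CPM in WT and 16.1, 13.6 and 19.2 CPM in labelled KO. Every labelled KO library lay below every WT library, and the log2 difference was -0.52 ± 0.11 (adjusted p = 0.00901) by edgeR. Without replicate 3 of labelled KO, which had the lowest value, it was -0.41 and no longer called. Against this 1 lower member and 0 higher stand 2.7% and 2.87% of all genes, and DESeq2 also called 1 lower and 0 higher. At an unadjusted p under 0.05 there were 10 lower and 0 higher members. The median log2 difference of the 78 was -0.11 beside -0.01 over all genes, and 65 of 78 were below 0. The libraries did not overlap in 12 lower and 0 higher members (9.2% and 8.47% of all genes).

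At 18 h the members were mostly lower in labelled KO. Of 78, 28 were lower and 1 higher by the quasi-likelihood test of edgeR, Benjamini-Hochberg adjusted over the 12529 genes tested, where 15.6% of all genes were lower and 16.6% higher. The median log2 difference was -0.27 beside -0.02 over all genes, and 66 members were below 0. In 29 members every labelled KO library lay below every WT library (37.2% of members, 17.6% of all genes), and in 1, Mrpl27, every one lay above (18.2% of all genes). Lower members numbered 19 of 51 in the large and 9 of 26 in the small subunit. Every scaling tried gave more lower than higher members. The numbers were 24 lower and 2 higher under median-of-ratios scaling, 32 and 1 under upper-quartile scaling, and 57 and 0 under library totals, which move the median of all genes to -0.23.

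Mrpl12 showed the largest difference at 18 h. It encodes the stalk protein of the large subunit, where translation factors dock, and its free form is known to bind mitochondrial RNA polymerase (chr11:120484637-120488754). In WT it read 13.1, 12.1, 13.4 and 13.8 CPM and in labelled KO 7.75, 6.83 and 5.26 CPM, so that the highest labelled KO library was far below the lowest WT library. The log2 difference was -0.99 ± 0.14 (adjusted p = 1.63e-05). At 0 h the 2 genotypes had overlapped, with 13.4, 14.0, 14.6 and 16.5 CPM in WT and 15.9, 16.8 and 14.3 CPM in labelled KO.

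Mrps18b (chr17:35910380-35916440), 1 of 3 mitochondrial relatives of a bacterial small-subunit protein, read 6.90, 6.85, 5.39 and 5.95 CPM in WT and 4.44, 3.24 and 1.99 CPM in labelled KO at 18 h. The groups did not overlap and the log2 difference was -0.98 ± 0.22 (adjusted p = 0.00171). Of its relatives, Mrps18a, in the large subunit, was lower by a smaller amount (-0.28 ± 0.10, adjusted p = 0.0392), and Mrps18c read 0.08 ± 0.12 (adjusted p = 0.665), not called. Mrpl23 read 5.13, 4.74, 3.14 and 4.25 CPM and 2.26, 2.54 and 2.84 CPM, without overlap, a log2 difference of -0.77 ± 0.17 (adjusted p = 0.00163). Mrpl35 (chr6:71812997-71823784), the counterpart of a bacterial large-subunit protein, read 13.2, 13.03, 12.8 and 13.5 CPM and 10.1, 6.39 and 7.47 CPM. Its WT libraries were close together, all above the labelled KO libraries, and the log2 difference was -0.72 ± 0.15 (adjusted p = 0.00103).

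Mrpl57, a mitochondrion-specific large-subunit protein, differed by -0.72 ± 0.18 on the log2 scale, and Mrpl50, another, by -0.64 ± 0.13. Mrps17 (-0.65 ± 0.13), Mrps2 (-0.57 ± 0.13) and Mrps5 (-0.57 ± 0.14) are small-subunit proteins with bacterial counterparts. Mrps27 (-0.62 ± 0.15) and Mrps26 (-0.60 ± 0.19) are mitochondrion-specific small-subunit proteins. Mrpl9 was lower again, with 29.0, 24.2, 23.9 and 25.9 CPM in WT and 17.9, 16.8 and 17.1 CPM in labelled KO and no overlap (-0.57 ± 0.11, adjusted p = 0.000605). The member called higher was Mrpl4 (chr9:21001252-21008839), from 17.0, 16.2, 15.0 and 18.7 CPM in WT to 22.9, 18.7 and 21.7 CPM in labelled KO. The highest WT and the lowest labelled KO library were both at 18.7 CPM, the log2 difference was 0.33 ± 0.11 (adjusted p = 0.0204), and the call ended in 6 of the alternatives, library totals among them.

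**Figure D4:**
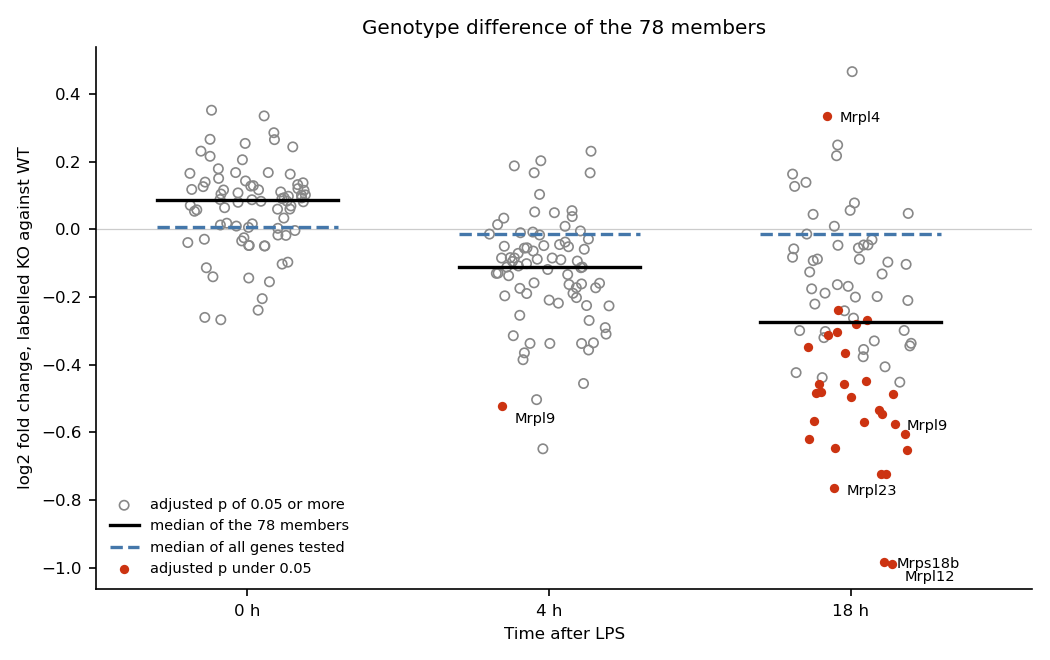
Log2 difference of each member between labelled KO and WT at 0, 4 and 18 h of LPS; filled points have an adjusted p under 0.05 in edgeR, the black line is the members' median and the dashed line the median of all genes tested. No point is filled at 0 h, 1 at 4 h (Mrpl9, -0.52) and 29 at 18 h, where the members' median is -0.27.

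Markers of other cells moved with the labelled genotype at 18 h, and their part in the members' difference was not tested. Of 14 stromal markers, 12 reached the test and 11 were higher in labelled KO; their summed level was 71.4 to 964 CPM there and 23.2 to 75.6 CPM in WT, while Lum and Thy1 stayed at or below 0.348 and 0.724 CPM. Replicate 4 of labelled KO was highest, with 964 CPM at 18 h and 648 CPM at 4 h. The stromal sums of labelled KO and WT overlapped at all 3 times, with 157 to 280 CPM against 6.05 to 165 CPM at 0 h and 63.8 to 648 CPM against 26.0 to 105 CPM at 4 h. Of 14 neutrophil markers, 8 reached the test and 5 were higher, with a sum of 328 to 462 CPM against 190 to 277 CPM. Lcn2 ran from 0.798 to 351 CPM over the 21 libraries, while S100a9, the next highest of the list, reached 52.1 CPM. The high sums thus rest largely on Lcn2, and in WT the sum was 28.3 to 48.98 CPM at 0 h. The granule genes Elane and Ctsg were at 0 in 17 and 18 of 21 libraries. The granule genes Ngp (5.14 to 36.02 CPM), Ltf (2.62 to 19.97 CPM), Mmp8 (4.37 to 16.6 CPM) and Camp (0.053 to 1.84 CPM) were at 0 in no library. Of 8 dendritic markers, 5 reached the test and 3 were higher, with a sum over the list of 18.0 to 24.0 CPM against 10.2 to 11.8 CPM. Xcr1 alone reached 18.1 CPM, while Flt3, Zbtb46 and Cd209a stayed at or below 0.123, 1.38 and 0.064 CPM and were not tested. Macrophage markers gave 3 higher and 2 lower of 8.

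Leaving out the library with the highest stromal level in each group, an alternative chosen after seeing the data under which 9 stromal markers were still higher, left 11 members lower at 18 h, all among the 28, and 0 higher. All genes then numbered 1046 lower and 1183 higher of 12529. The median log2 difference of the members was -0.23, beside -0.02 over all genes. The 11 included Mrpl12 (-0.83), Mrpl23 (-0.97), Mrps18b (-0.77), Mrpl57 (-0.68), Mrpl35 (-0.68), Mrps17 (-0.62), Mrpl9 (-0.60), Mrpl50 (-0.57) and Mrps2 (-0.47), while Mrps27, Mrps26 and Mrps5 lost the call. Without replicate 4 of labelled KO at 18 h alone, 15 were lower. The replicate block gave 26 lower members and 2 higher.

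The response to LPS at 18 h, tested against the genotype label, was lower in labelled KO for 18 members. The interaction, the LPS effect in labelled KO minus that in WT, was below 0 in 67 of 78 members, with a median of -0.32 beside -0.01 over all genes. By edgeR 18 members had a lower and 0 a higher response, against 9% and 8.57% of all genes; at an unadjusted p under 0.05 the numbers were 30 and 0, and DESeq2 called 17 and 0. At 4 h no interaction was called in either direction (0.2% and 0.599% of all genes), with 9 lower and 0 higher members at an unadjusted p under 0.05, 0 and 0 by DESeq2. There too 68 of 78 members were below 0, with a median of -0.19. Of all genes, 47.5% were above 0 at 4 h and 48.9% at 18 h. The interaction at 18 h shares its libraries with the genotype difference above and is not separate evidence for it. Both interactions also take in the difference at 0 h, which was above 0 in 57 of 78 members.

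Mrpl12 had the largest interaction, -1.09 ± 0.18 (adjusted p = 0.00033): it read 13.4 to 16.5 CPM at 0 h and 12.1 to 13.8 CPM at 18 h in WT, and 14.3 to 16.8 CPM and 5.26 to 7.75 CPM in labelled KO. Mrps18b (-1.05 ± 0.29), Mrpl35 (-0.86 ± 0.20), Mrpl23 (-0.73 ± 0.21), Mrpl36 (-0.72 ± 0.21), Mrps17 (-0.71 ± 0.17), Mrpl47 (-0.67 ± 0.22), Mrpl28 (-0.66 ± 0.15) and Mrpl3 (-0.65 ± 0.15) followed. Mrps14 (-0.62 ± 0.21), Mrpl50 (-0.60 ± 0.18) and Mrps2 (-0.55 ± 0.18) were called as well. Of the 12, Mrpl12, Mrpl35 and Mrpl28 kept the call in every alternative tried. For Mrpl28 the interaction includes a log2 difference of 0.35 between genotypes at 0 h, not called by edgeR. Mrps14 lost it in 21, Mrpl47 in 14, Mrps2 in 12 and Mrpl50 in 7 alternatives, Mrpl36 in 4, Mrpl23 in 3, Mrps18b in 2, and Mrps17 and Mrpl3 in 1 each. Counterparts of bacterial proteins made up 14 of the 18 and mitochondrion-specific proteins 4, with Mrps18b, a relative of a bacterial protein, counted among the latter. Without the library of highest stromal level in each group, 4 interactions were called, and without the WT libraries numbered 1 there were 12. Without replicate 4 of labelled KO at 18 h there were 10, and without replicate 2 of labelled KO at 0 h there were 11. Cell-cycle genes had 12 higher and 1 lower interaction of 22 at 18 h, and their part was not tested.

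Members with a known special role did not move as 1 group. Mrps12, which shapes the decoding centre, was lower at 4 h in both genotypes (-0.55 ± 0.14 in WT and -0.83 ± 0.17 in labelled KO) and differed by -0.30 ± 0.16 between them at 18 h, not called. Mrpl58, the peptidyl-tRNA hydrolase that rescues stalled ribosomes, was lower at 4 h in WT (-0.62 ± 0.15, adjusted p = 0.00085) and rose again by 18 h (0.68 ± 0.15). Mrps30, a large-subunit protein, was higher in WT at 4 h (0.40 ± 0.12) and 18 h (0.66 ± 0.11), and lower in labelled KO than in WT at 18 h (-0.35 ± 0.13, adjusted p = 0.0421). Mrps28, at 1.62 to 3.09 CPM in WT at 0 h, was not called between LPS times in WT but was higher at 18 h than at 4 h in labelled KO (0.91 ± 0.24, adjusted p = 0.00234). Mrps36, the dehydrogenase subunit, was lower at 4 h in WT (-0.61 ± 0.10) and labelled KO (-0.81 ± 0.12), and 3 copies named as its pseudogenes could take some of its reads.

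Among promoters of the 22 members higher in WT at 4 h, 18 were matched and 5 held CCGGAAGT (Mrpl27, Mrpl3, Mrpl52, Mrps18c and Mrps22), a share of 27.78%. Of the 26 promoters of lower members 5 held it as well, 19.23%. GCATGCGC was in 2 of the former, those of Mrpl32 and Mrpl39, and in 0 of the latter. AAGATGGC stood in 7 of the 26 promoters of members lower in labelled KO at 18 h (26.92%), among them Mrpl35, Mrps27 and Mrps7. These are counts over few promoters without a test.

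Genes that share a promoter region were called in the same and in opposite directions. With a limit of 1000 bases between starts on opposite strands, 26 members had a divergent partner, making 25 pairs because Mrpl46 and Mrps11 are partners of each other with starts 42 bases apart. At 4 h in WT, Mrpl46 rose (0.88 ± 0.11) while Mrps11 read -0.35 ± 0.16 (adjusted p = 0.0578), not called; at 18 h both were higher, at 0.75 ± 0.11 and 0.48 ± 0.16. In 17 pairs both genes were called at 4 h: 3 both higher, 10 both lower and 4 opposite. At 18 h the numbers were 13, with 6, 1 and 6. In WT 35.1% of all genes were higher and 43.0% lower at 4 h, and 34.8% and 36.3% at 18 h. Many pairs would thus be called without sharing a promoter, and these counts were not compared with those of unpaired genes. Mrps18c was higher at 4 h while its partner Helq was lower (-1.47), and Mrpl49 was lower while Fau, its partner, was higher (0.31).

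Several members lie next to or across genes that changed strongly. Mrpl52 lies 1847 bases from Mmp14, a matrix metalloproteinase that rose by 4.61 on the log2 scale at 4 h in WT, from 36.9 to 901 CPM on average. Mrps25 shares 3547 bases with Nr2c2, which fell by 2.68, and Mrpl2 shares 18 bases with Klc4, which fell by 3.57. Mrps6 shares 29138 bases with Slc5a3, which fell by 1.34 while Mrps6 rose (0.55 ± 0.15). Whether reads of these neighbours were counted with the members was not tested. In all, 20 members overlap another coding gene and 4 have a named pseudogene. Without the 20, labelled KO was lower at 18 h in 21 of 58 members and higher in 1.

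Other genes of the mitochondrial translation system had more lower than higher calls at 4 h in WT, as had all genes tested (35.1% higher and 43.0% lower). The list of translation factors also takes in Slirp and Lrpprc, which are not translation factors in the strict sense. Of its 16 genes tested, 2 were higher and 10 lower in WT at 4 h. Slirp, an RNA-stabilising partner of Lrpprc, read 0.95 and the elongation factor Gfm1 0.51. The release factor Mtrf1 read -1.54, the recycling factor Mrrf -1.44 and the deformylase Pdf -1.24. Of 24 assembly factors, 5 were higher and 14 lower, led by Rbfa (-2.91), which matures the small subunit, and the ribosomal RNA methyltransferase Mrm1 (-2.02). Of 20 mitochondrial aminoacyl-tRNA synthetases and amidotransferase subunits 0 were higher and 17 lower, with Gatc at -2.76 and Nars2 at -2.04. Of 15 genes for mitochondrial DNA and RNA upkeep 6 were higher and 7 lower (40.0% and 46.7%), near the shares of all genes. Among them the RNA-processing enzyme Pnpt1 read 3.13 and the polymerase Polrmt -1.08. On library totals these 4 lists gave 0 and 15, 0 and 23, 0 and 19, and 2 and 13.

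Under TMM scaling, at 18 h against 0 h in WT, 34.8% of all genes were higher and 36.3% lower. The same 4 lists had 3 higher and 7 lower, 3 and 8, 0 and 14, and 6 and 2, where the members had 36 and 12. On library totals they had 1 and 13, 0 and 20, 0 and 18, and 2 and 10, so the last list had more lower than higher genes there, as under upper-quartile factors (3 and 4). At 4 h, under the same TMM scaling, 35.1% of all genes were higher and 43.0% lower. The respiratory chain's nuclear-encoded subunits, the partners of what the mitochondrial ribosome makes, had 41 higher and 13 lower of 100 at 4 h and 40 and 24 at 18 h under TMM scaling. Cytosolic ribosomal proteins had, under that scaling, 38 higher and 1 lower of 96 at 4 h and 6 and 77 at 18 h. The difference between the 2 ribosomes was not tested.

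Between the labelled genotypes at 18 h, 15.6% of all genes were lower and 16.6% higher. Of 16 genes in the list of translation factors 7 were lower and 0 higher, with Lrpprc, the partner of Slirp, at -0.87, Mtrf1 at -0.82 and Tsfm at -0.81. Of 24 assembly factors 10 were lower, with Mrm3 at -1.53, Rcc1l at -1.37 and Mtg1 at -1.06. Of 20 synthetases 7 were lower, with Tars2 at -1.46 and Ears2 at -1.29, and of 15 DNA and RNA genes 6 were lower, with Polrmt at -1.19 and Tfb2m at -0.82. No gene of these 4 lists was called higher by edgeR. Without the library of highest stromal level in each group the lower counts were 2, 6, 5 and 4. Of 30 ribosome biogenesis genes 27 were lower (21 in that alternative), of 96 cytosolic ribosomal proteins 41 were lower and 2 higher, and of 100 respiratory chain subunits 16 were lower and 1 higher.

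**Figure D5:**
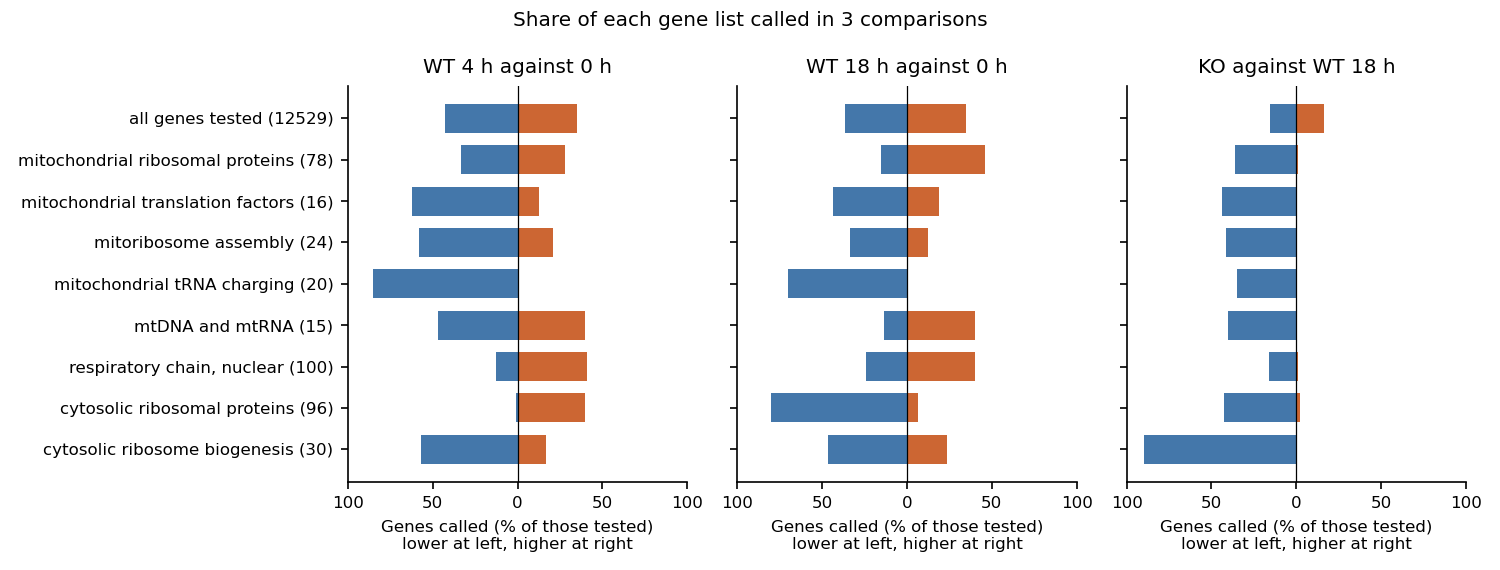
Percent of tested genes called higher (right) and lower (left) in each list for WT 4 h against 0 h, WT 18 h against 0 h, and labelled KO against WT at 18 h. The members are 28.2% higher and 33.3% lower at 4 h, 46.2% and 15.4% at 18 h in WT, and 1.3% and 35.9% between genotypes at 18 h; with plain library totals the first of these splits becomes 2 higher and 71 lower members.

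Transcription regulators known to act on genes for mitochondria were mostly higher at 4 h in WT under TMM scaling. Of 9 tested 7 were higher and 1 lower, beside 35.1% and 43.0% of all genes. Nrf1 (nuclear respiratory factor 1) read 0.99 (adjusted p = 6.18e-10), and the GABP subunits Gabpa 0.82 and Gabpb1 1.81. The coactivators Ppargc1b and Pprc1 read 3.20 and 0.72, the nuclear receptor Esrra 0.62 and the Myc partner Max 2.53. Yy1 was lower at -0.47 and Myc read 0.01 (adjusted p = 0.951), not called. On library totals 3 were higher and 4 lower. Ppargc1a stayed at or below 0.0876 CPM and was not tested. In labelled KO at 4 h, under TMM scaling, 8 of 9 were higher, Myc among them at 0.92, beside 33.5% of all genes.

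Under TMM scaling, at 18 h against 0 h, 34.8% of all genes were higher and 36.3% lower in WT, and 34.5% and 38.5% in labelled KO. Of the 9 regulators 6 were higher and 1 lower in WT, and 4 higher and 2 lower in labelled KO. In WT, library totals gave 3 higher and 4 lower, and upper-quartile factors 4 and 3. Between the labelled genotypes at 18 h Pprc1 (-0.90, adjusted p = 3.19e-06), Ppargc1b (-0.89, adjusted p = 0.00105) and Yy1 (-0.32, adjusted p = 0.00674) were lower and Max (0.44, adjusted p = 0.00384) was higher by edgeR. Lower and higher calls took in 15.6% and 16.6% of all genes. Myc differed by -0.58 (adjusted p = 0.0516), not called, and Nrf1 by -0.08, Gabpa by 0.15, Gabpb1 by 0.23 and Esrra by -0.15, none called. Without the library of highest stromal level in each group 1 was lower and 1 higher.

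Proteins of the mitochondrial ribosome that carry other names were mostly higher at 18 h in WT under TMM scaling. In WT 35.1% of all genes were higher and 43.0% lower at 4 h, and 34.8% and 36.3% at 18 h. Of Dap3, Chchd1, Aurkaip1, Ptcd3 and Gadd45gip1, 0 were called in WT at 4 h, and 4 were higher and 1 lower at 18 h. Library totals gave 0 higher and 5 lower at 4 h and 0 and 1 at 18 h, and upper-quartile factors 0 and 4, and 2 and 1. Under TMM scaling at 18 h Dap3 read 0.47, Chchd1 0.68, Aurkaip1 0.28, Gadd45gip1 0.31 and Ptcd3 -0.24. Between the labelled genotypes at 18 h Ptcd3 (-0.53, adjusted p = 0.00209) and Gadd45gip1 (-0.47, adjusted p = 0.00341) were lower, and both calls ended without the library of highest stromal level in each group.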

How the data were processed

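The deposited table holds estimated counts for 42361 RefSeq transcripts in 21 libraries of mouse macrophages, in steps of 0.5. CASAVA 1.8.2, HISAT2 2.1.0 and mm10 are named per the submitters' processing notes; the sources used here give neither the counting tool nor its use of strand. Counts were rounded to whole numbers. Transcripts were mapped to 25067 genes by RefSeq (42203) or GENCODE (65) tables, and 93 unmapped transcripts, 0.232 to 2.229% of counts per library, were left out; 0 columns belonged to no sample. Testing used edgeR 4.0.16 (quasi-likelihood, TMM, filterByExpr, all 6 groups in 1 fit, Benjamini-Hochberg adjusted p under 0.05) in R 4.3.3. The planned test assumed whole counts, which rounding provides.

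Alternatives were DESeq2 1.42.0, median-of-ratios, upper-quartile and total scaling, no filter, summed transcripts, a replicate block, and leaving out libraries. The test was checked on simulated counts drawn from the means of these libraries, with known changes set in WT at 4 h. It recovered 73 of 100 changes of 1.5-fold and 98 of 100 of 2.0-fold, with 12 false calls among 12529 genes. The changed genes all had simulated means over 100 counts, so members below that level, Mrps28 among them, lie outside its range. All other genes kept the same mean in every group. The simulation therefore does not hold the broad shift between times seen in the data, and it is no check on the scaling. Smaller changes were not simulated. No 2 libraries of a group agreed within sampling noise (chi-square per gene 6.74 to 68.96 over 27 pairs).

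Same-numbered WT libraries at 0 and 4 h deviated together (correlations of 0.228 to 0.316, over 0.1 in every pair); the other pairs of groups did not meet that rule in every pair, and the labels do not say what the numbers mark. Members, gene lists and tests were chosen with earlier results of these data known. Genes named are up to 6 called members of largest change each way per comparison, up to 12 for comparisons between genotypes, the 5 highest and 5 lowest per kb, 10 fixed by role, up to 3 called genes each way of each list, and the regulators and other-named proteins whole. Neighbours, printed promoters and Mrpl15 were chosen after their values were seen. Lymphoid markers gave 0 of 8 tested; cell-cycle genes at 18 h between genotypes gave 2 higher and 6 lower of 22.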

Additional observations from a re-analysis of the deposited data

Results flagged for a closer look

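Within a group of 4 WT libraries, 1 library stood far from the rest in 4 of 132 member-by-time groups of the 44 members named, where chance gives about 1 in 20. Mrpl23 read 6.00 CPM in the second WT library at 4 h, against 7.79 to 8.11 CPM in the others. Mrpl35 read 10.2 CPM in the second WT library at 0 h, against 7.77 to 7.93 CPM. Mrpl39 read 30.1 CPM in the first WT library at 4 h, against 24.4 to 24.95 CPM, and Mrps25 read 12.6 CPM in the second, against 10.7 to 10.97 CPM.

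The LPS effect at 18 h differed between the labelled genotypes, by edgeR's interaction term, in 18 members. For the 12 of largest size the log2 interaction was -1.09 for Mrpl12, -1.05 for Mrps18b, -0.86 for Mrpl35, -0.73 for Mrpl23, -0.72 for Mrpl36, -0.71 for Mrps17, -0.67 for Mrpl47, -0.66 for Mrpl28, -0.65 for Mrpl3, -0.62 for Mrps14, -0.60 for Mrpl50 and -0.55 for Mrps2.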

How the results depend on the processing

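Library totals, added after seeing the data, moved the counts of members higher and lower to 2 and 71 (WT 4 h against 0 h), 12 and 44 (WT 18 h against 0 h), 65 and 2 (WT 18 h against 4 h), 1 and 72, 6 and 64, and 45 and 8 (the same in labelled KO), 0 and 57 (genotypes at 18 h) and 39 lower interactions at 18 h. Upper-quartile factors gave 11 and 46, 23 and 25, 4 lower (WT 18 h against 4 h), 7 and 54 (labelled KO at 4 h) and 10 lower (labelled KO, 18 h against 4 h). On totals the log2 changes of Mrpl46 (-0.095), Mrpl27 (-0.16) and Mrps18c (-0.20) in WT at 4 h, Mrps2 (0.077) and Mrpl33 (0.13) in WT between 4 and 18 h, and Mrpl3 (-0.11), Mrpl39 (-0.15), Mrpl32 (-0.21) and Mrpl30 (-0.32) in labelled KO at 4 h reversed. Between genotypes at 18 h, median-of-ratios factors, DESeq2, the replicate block and leaving out the WT libraries numbered 1 each gave 2 higher; the block changed no other count by over 1.5 times. DESeq2 gave 1 higher at 0 h. Without the libraries of highest stromal level, 10 were lower in labelled KO between 4 and 18 h, 0 were higher and 11 lower between genotypes at 18 h, and 4 interactions were lower. Leaving out 1 library gave 0 to 1 higher at 0 h, 0 to 2 lower at 4 h, 0 to 2 higher and 15 to 30 lower at 18 h, and 10 to 19 lower interactions. The causes were not tested beyond what each setting removes. Members had a mean of 50.7 to 568 counts per library, which limits how small a difference can be called.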
